A study of Mus musculus with 8 samples.

Results

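Serotonin receptor genes were followed in cultured hippocampal neurons that received melanin-concentrating hormone (MCH), a neuropeptide of the lateral hypothalamus. The 10 genes are *Htr1a*, *Htr1b*, *Htr1d*, *Htr1f*, *Htr2a*, *Htr2c*, *Htr3a*, *Htr4*, *Htr5a* and *Htr7*, taken by name from the 14 genes of the mouse serotonin receptor family and from the 45706 genes of the deposited table. *Htr1a* was chosen by the study on its difference after MCH in these wells, so its values between treatments are a description with no test. The others were chosen by name, with earlier results of these data known. The 4 further family genes (*Htr2b*, *Htr3b*, *Htr5b* and *Htr6*) stand beside them where they complete the picture.

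The neurons were taken at embryonic day 18 from C57/Bl6 wild-type mice and grown in culture until late in the second week in vitro, with 5-fluoro-2′-deoxyuridine added early against dividing glia. They received 1 µM MCH peptide or vehicle (H2O) for 4 h, with 4 wells per treatment, and the comparison asks which transcripts differ in neurons exposed to the peptide. The wells came from only 2 independent cultures, each with 2 wells of either treatment, so the 4 wells of a treatment are not 4 independent cultures and *P* values measure the spread between wells, which is partly technical. The sources used here do not say which replicate belongs to which culture. An Alzheimer's disease model tag stands in the labels of all wells beside a wild-type genotype entry. Library totals ranged from 26083936 to 31844861 estimated counts per well.

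Replicates 1 and 2 of both treatments stood apart from replicates 3 and 4, on a first principal component that took 59.8% of the variance around the treatment means. Summed over 7 astrocyte markers, the level was 344 to 466 CPM (counts of a gene scaled to a common library size) in replicates 1 and 2 and 1512 to 1719 CPM in replicates 3 and 4. The 6 markers of neurons summed to 5271 to 5834 CPM over all wells, so neurons were present throughout. The 5 markers of serotonergic neurons summed to 2.18 to 3.52 CPM. Of these, *Slc6a4* (the serotonin transporter) and *Gata3* had no more than 3 counts in any well, and *Fev* no more than 4. The others were above that in every well, *Tph2* with 33 to 67 counts and *Slc18a2* with 14 to 32. In such bulk samples fewer cells of a type and less RNA per cell cannot be told apart.

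Serotonin receptors fall into classes by the way they signal. The receptors of the 5-HT1 and 5-HT5 groups couple mainly to Gi/o proteins, which lower cyclic AMP and open potassium channels, and *Htr1a* and *Htr1b* are the best known of them: the former inhibits the soma and dendrites of hippocampal pyramidal neurons, the latter sits on axon terminals and reduces transmitter release. The 5-HT2 receptors couple to Gq/11 and phospholipase C, those encoded by *Htr4*, *Htr6* and *Htr7* couple to Gs and raise cyclic AMP, and *Htr3a* encodes a subunit of a cation channel opened by serotonin.

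The levels of the 10 genes spanned a wide range, compared here in TPM, which scales reads for transcript length as well as depth. *Htr2c* had the highest level, a median of 48.1 TPM over the 8 wells with a range of 47.5 to 53.8 TPM. It was followed by *Htr3a* with a median of 19.3 TPM (13.4 to 24.3), *Htr7* with 13.2 TPM (10.8 to 13.8), *Htr4* with 6.26 TPM (5.46 to 7.30) and *Htr2a* with 5.65 TPM (4.99 to 6.94). *Htr1a* came next with a median of 2.65 TPM (1.77 to 4.10), then *Htr5a* with 2.14 TPM (1.88 to 2.60), *Htr1b* with 0.713 TPM (0.324 to 0.972), *Htr1f* with 0.288 TPM (0.210 to 0.528) and *Htr1d* with 0.0604 TPM (0 to 0.129). Among these 10 genes the ranges of neighbours did not overlap between *Htr2c* and *Htr3a*, *Htr7* and *Htr4*, *Htr2a* and *Htr1a*, *Htr5a* and *Htr1b*, or *Htr1f* and *Htr1d*. They overlapped between *Htr3a* and *Htr7* and between *Htr1b* and *Htr1f*, although the former gene of each was the higher in 8 of 8 wells. *Htr4* exceeded *Htr2a* in 5 of 8 wells, so this step of the order is within the spread of the wells. *Htr1a* exceeded *Htr5a* in 6 of 8. The exceptions were vehicle replicates 1 and 2, and *Htr1a* was the higher in every MCH well, so this step depends on pooling the treatments. Among the family genes outside the list, *Htr6* had a median of 4.69 TPM, *Htr5b* 0.512 TPM, *Htr2b* 0.167 TPM and *Htr3b* 0.0299 TPM. *Htr1d* held 0 to 4 counts per well, at or under the floor of 3 counts in 6 of 8 wells, and no difference could be detected at this depth.

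**Figure D1:**
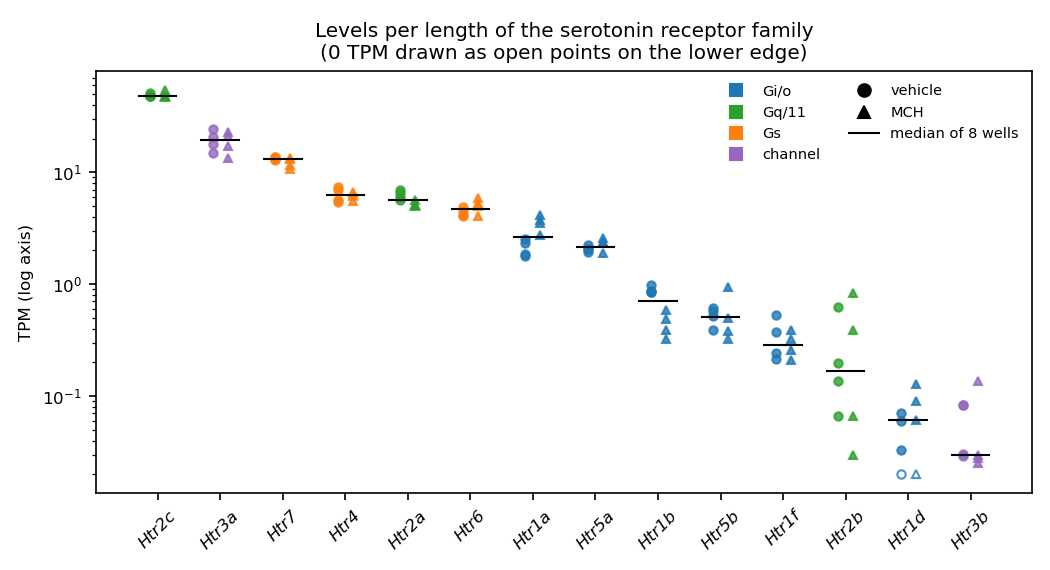
Level of each serotonin receptor gene in TPM (vertical log axis), with circles for the 4 vehicle wells, triangles for the 4 MCH wells, colours for the coupling class and a line for the median of 8 wells. Htr2c stands above all others at 47.5 to 53.8 TPM, and Htr1a and Htr1b are the genes of the Gi/o class whose circles and triangles separate.

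By coupling class, the Gq/11 receptors held 55.4 ± 1.33 TPM (SD, n = 4) in vehicle wells and 54.7 ± 2.82 TPM in MCH wells. Most of it was *Htr2c*, with means of 48.8 and 49.2 TPM, and *Htr2a* held 6.31 and 5.21 TPM. *Htr2c* took 43.7 to 49.2% of the TPM of the whole family. The Gs receptors held 24.1 ± 0.878 and 23.4 ± 2.02 TPM, and the channel subunits 19.5 ± 3.92 and 18.7 ± 4.19 TPM. The Gi/o receptors held the least, with 5.67 to 6.35 TPM in vehicle wells and 6.56 to 7.94 TPM in MCH wells. Because this sum contains *Htr1a*, its difference follows from the choice of that gene and was not tested. The family as a whole summed to 105 ± 5.19 TPM with vehicle and 104 ± 7.60 TPM with MCH.

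*Htr1a* (ENSMUSG00000021721, chr13:105443639-105448122 on the plus strand of GRCm38) was higher in every MCH well than in every vehicle well. Vehicle wells held 4.65, 4.46, 6.27 and 5.76 CPM in replicates 1 to 4, and MCH wells 6.74, 8.71, 9.13 and 10.01 CPM. The lowest MCH well was replicate 1 and the highest vehicle well replicate 3, and the treatments did not overlap. The means were 5.28 ± 0.875 CPM and 8.65 ± 1.38 CPM (SD, n = 4 each), a ratio of 1.64. The log2 fold change was 0.71 ± 0.15 (SE, edgeR without a block), and same-numbered wells differed by 0.53 to 0.96 on the log2 scale. Since the treatments did not overlap, every such pair had to be higher with MCH. Within replicates 1 and 2 the log2 difference was 0.74 and within replicates 3 and 4 it was 0.66.

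*Htr1b* (ENSMUSG00000049511, chr9:81628291-81633828 on the minus strand) went the other way. It held 2.32, 2.61, 2.22 and 2.23 CPM in vehicle replicates 1 to 4 and 1.28, 1.01, 1.52 and 0.842 CPM in MCH replicates 1 to 4. All MCH wells lay below all vehicle wells, on small counts of 60 to 72 with vehicle and 24 to 44 with MCH. The means were 2.35 ± 0.182 and 1.16 ± 0.299 CPM (SD, n = 4 each), a log2 fold change of −1.01 ± 0.21 (SE). In the edgeR fit without a block this did not pass the threshold after adjustment over 14962 genes (adjusted *P* = 0.148, unadjusted *P* = 0.000937). The replicate number was also used as a block, which sets each MCH well against the vehicle well of the same number. In that fit *Htr1b* was lower by 1.02 ± 0.21 (SE) on the log2 scale (edgeR, adjusted *P* = 0.00848). Same-numbered wells differed by −1.33 to −0.52, all lower because the treatments did not overlap. These pairs rest on the labels alone, and the counts showed replicates 1 and 2 apart from 3 and 4 but no pairing by number. With the side (replicates 1 and 2 against 3 and 4) as the block the adjusted *P* was 0.00523. An antisense gene, D430036J16Rik, overlaps *Htr1b* and held 45 counts in all wells together.

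*Htr1a* was higher and *Htr1b* lower in every MCH well than in every vehicle well, so their ratio had to separate by treatment. The ratio of their TPM was 1.82 to 3.02 in vehicle wells and 5.63 to 12.7 in MCH wells, and *Htr1a* made up 30.5 to 41.8% of the Gi/o receptor TPM with vehicle and 42.0 to 57.0% with MCH. Both quantities contain *Htr1a* and carry no test.

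*Htr2a* (ENSMUSG00000034997, chr14:74640840-74709494 on the plus strand), the Gq/11-coupled receptor at which the classical hallucinogens act, was the third gene whose treatments did not overlap. Vehicle wells held 11.2, 10.7, 9.59 and 9.18 CPM and MCH wells 8.15, 7.96, 8.89 and 8.07 CPM in replicates 1 to 4. The gap between the lowest vehicle well and the highest MCH well, replicates 4 and 3, was small beside the range of the vehicle wells. The means were 10.2 ± 0.959 and 8.27 ± 0.423 CPM (SD, n = 4 each), a log2 fold change of −0.30 ± 0.09 (SE). It was not called without a block (edgeR, adjusted *P* = 0.329, unadjusted *P* = 0.00670) or with the replicate block (adjusted *P* = 0.0617), and passed with the side block (adjusted *P* = 0.0479). On the log2 scale the wells of replicates 1 and 2 differed by −0.44 and those of replicates 3 and 4 by −0.15, and whether those values differ was not tested.

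**Figure D2:**
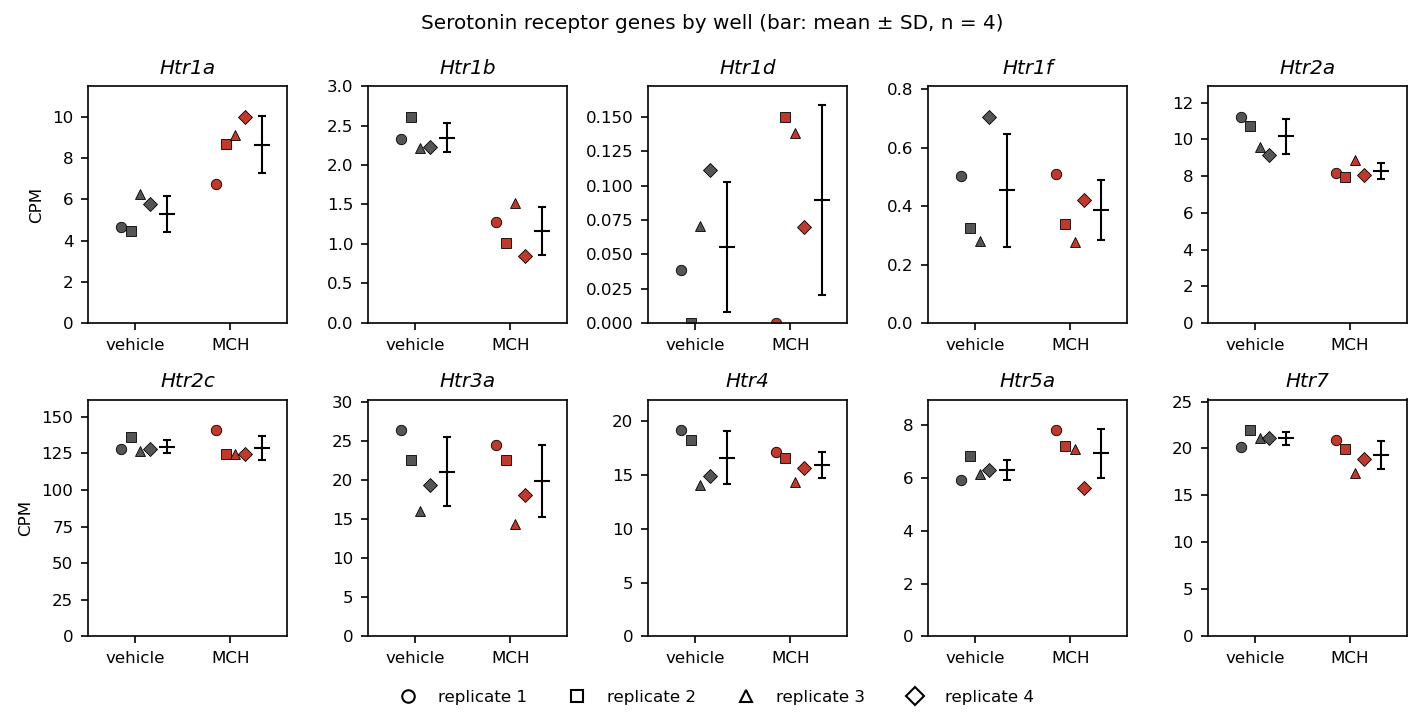
Level of each of the 10 serotonin receptor genes in CPM by treatment, 1 panel per gene with its own vertical axis from 0; grey symbols are vehicle wells, red symbols MCH wells, shapes mark the replicate number, and bars show mean ± SD of 4 wells. The treatments do not overlap in Htr1a, Htr1b and Htr2a, while in Htr3a and Htr4 the circles and squares (replicates 1 and 2) lie above the triangles and diamonds (replicates 3 and 4) of the same treatment.

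The bases before the starts of these 3 genes are shown because the results turn on them. They come from RefSeq's promoter windows of GRCm38.p6, in which 8 of the 10 genes have an entry, and each run is cut where the annotated gene begins. Both strands of the 250 bases upstream of the RefSeq start were searched for the cyclic AMP response element TGACGTCA, its shorter form TGACG, the AP-1 site TGACTCA, the GC box GGGCGG, the CCAAT box and the TATA box TATAAA, a list chosen after the values were seen. Capitals mark the matches. The runs, 5′ to 3′ on the strand of the gene, are chr13:105443443-105443638, chr9:81633833-81634082 and chr14:74640624-74640839.
Htr1a: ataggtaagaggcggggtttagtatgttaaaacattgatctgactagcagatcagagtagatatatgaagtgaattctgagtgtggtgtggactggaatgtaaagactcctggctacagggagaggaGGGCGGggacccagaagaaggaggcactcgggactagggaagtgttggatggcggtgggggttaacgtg
Htr1b: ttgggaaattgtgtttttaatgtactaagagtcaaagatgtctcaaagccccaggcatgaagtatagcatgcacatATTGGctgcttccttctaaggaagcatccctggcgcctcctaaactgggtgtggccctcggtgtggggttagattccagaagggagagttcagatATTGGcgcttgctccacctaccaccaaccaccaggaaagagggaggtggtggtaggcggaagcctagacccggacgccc
Htr2a: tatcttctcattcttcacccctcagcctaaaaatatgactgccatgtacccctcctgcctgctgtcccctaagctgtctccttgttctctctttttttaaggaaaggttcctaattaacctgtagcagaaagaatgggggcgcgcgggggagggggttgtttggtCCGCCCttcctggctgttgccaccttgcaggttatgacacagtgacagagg

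The *Htr1a* window held 1 GC box at −123 to −118 from the RefSeq start, and the *Htr2a* window 1 GC box on the other strand at −85 to −80. The *Htr1b* window held 2 CCAAT boxes on the other strand, at −174 to −170 and at −79 to −75. GC boxes stood in 32.7% and CCAAT boxes in 33.9% of the 32851 windows of the same length in the table. The cyclic AMP response element had no match in these 3 windows, nor did its shorter form, which lies within it, the AP-1 site or the TATA box. Of all windows 1.55% held the full element, 17.8% the shorter form, 4.46% the AP-1 site and 12.4% the TATA box.

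The remaining Gi/o receptors did not separate by treatment. *Htr5a* held 5.93, 6.81, 6.13 and 6.28 CPM with vehicle and 7.79, 7.21, 7.09 and 5.62 CPM with MCH, so that the MCH wells included both the highest and the lowest value. Its log2 fold change was 0.14 ± 0.11 (SE; edgeR, adjusted *P* = 0.833). *Htr1f*, whose product is a target of antimigraine drugs, held 8 to 19 counts per well and a log2 fold change of −0.22 ± 0.38 (SE; adjusted *P* = 0.977, edgeR). Vehicle replicate 4 of *Htr1f* was the highest at 0.706 CPM, and the other wells lay between 0.277 and 0.511 CPM.

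The receptor with the highest level, *Htr2c* (ENSMUSG00000041380, chrX:146962513-147197277 on the plus strand), differed least. It held 128, 136, 127 and 128 CPM in vehicle replicates 1 to 4 and 141, 125, 125 and 125 CPM in MCH replicates 1 to 4, on 3297 to 4405 counts per well. In each treatment 1 well stood above 3 that lay close together, vehicle replicate 2 and MCH replicate 1. The log2 fold change was −0.01 ± 0.05 (SE; edgeR, adjusted *P* = 1.00), and the same-numbered wells ranged from −0.12 to 0.14 on the log2 scale.

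Among the Gs-coupled receptors, *Htr7* held 20.2, 21.9, 21.1 and 21.1 CPM with vehicle and 21.0, 19.9, 17.4 and 18.9 CPM with MCH. The MCH wells reached lower but overlapped the vehicle wells through replicate 1, and the log2 fold change of −0.13 ± 0.06 (SE) did not pass the test (edgeR, adjusted *P* = 0.647). *Htr4*, a receptor of pyramidal neurons that raises their excitability, held 19.1, 18.2, 14.1 and 14.9 CPM with vehicle and 17.1, 16.6, 14.3 and 15.6 CPM with MCH. The fit gave a log2 fold change of −0.06 ± 0.11 (SE; edgeR, adjusted *P* = 0.981). *Htr6*, outside the list, had a log2 fold change of 0.19 ± 0.13 (SE; edgeR, adjusted *P* = 0.779).

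*Htr3a*, known for its expression in interneurons of the caudal ganglionic eminence, held 26.4, 22.6, 16.1 and 19.4 CPM with vehicle and 24.5, 22.6, 14.4 and 18.2 CPM with MCH. The treatments overlapped almost fully, with a log2 fold change of −0.08 ± 0.20 (SE; edgeR, adjusted *P* = 0.993). What separated the wells was the side. *Htr3a* stood at 24.0 ± 1.81 CPM in replicates 1 and 2 and 17.0 ± 2.24 CPM in replicates 3 and 4 (SD, n = 4 wells each), and *Htr4* at 17.8 ± 1.14 and 14.7 ± 0.677 CPM. These were the 2 listed genes whose sides did not overlap. The 11 markers of caudal eminence interneurons summed to 1385 to 1452 CPM in replicates 1 and 2 and 1163 to 1204 CPM in replicates 3 and 4. None of them was at or under the floor in every well. The 6 excitatory neuron markers summed to 3145 to 3550 and 2627 to 2788 CPM. Other neuronal lists differed the same way, the 10 interneuron markers with 2758 to 3000 and 2224 to 2496 CPM and the 6 neuron markers with 5561 to 5834 and 5271 to 5402 CPM. The markers of astrocytes, the oligodendrocyte lineage, microglia, and fibroblasts and vessels were lower in replicates 1 and 2. The part of these differences in the values of *Htr3a* and *Htr4* was not tested, and since the sides were read from the counts they carry no test either.

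Over the list as a whole, 9 of the 10 genes passed the filter on low counts. Of the 8 besides *Htr1a*, 0 were called without a block (edgeR), where 0.234% of all genes tested were called, and DESeq2 and limma voom called 0 as well, DESeq2 giving no adjusted value for *Htr1b* and *Htr1f*. At an unadjusted *P* value under 0.05, 2 of the 8 were below it, *Htr1b* and *Htr2a*, beside 8.5% of all genes. The same 2 genes were those whose treatments did not overlap in CPM, beside 6.03% of all genes in either direction. With the replicate block 1 of the 8 was called, *Htr1b*, against a background of 3.98%. With the side block 2 were called, against 4.46%. Of the 8 genes, 7 had lower and 1 had higher fitted levels with MCH, and their median log2 fold change was −0.106, beside −0.0027 over all genes tested. The share of all genes with lower levels was not counted. Among the lower genes, *Htr1f*, *Htr2c*, *Htr3a* and *Htr4* crossed 0 when single wells were left out. Adding *Htr5b* and *Htr6*, the tested family genes outside the list, gave 7 lower and 3 higher, with a median of −0.072. A shift of the family was not tested.

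**Figure D3:**
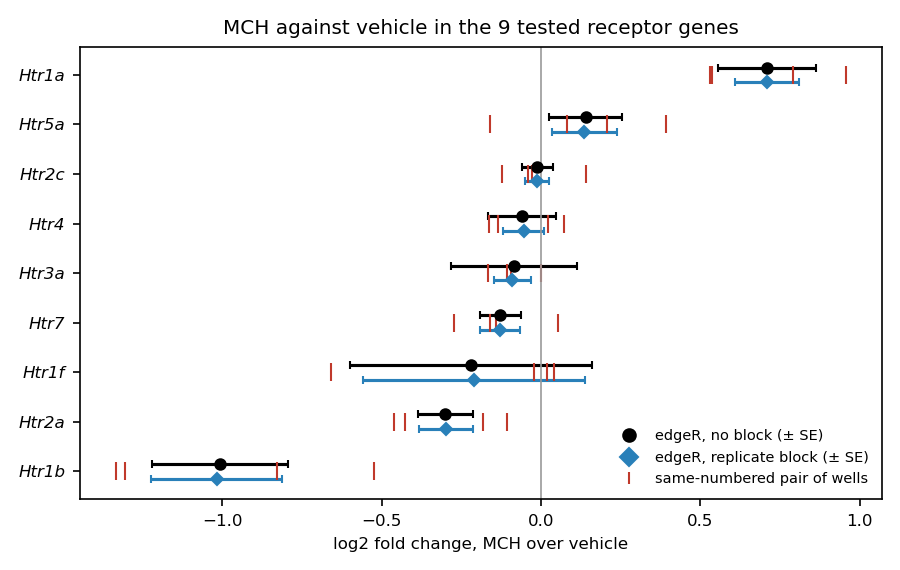
Log2 fold change, MCH over vehicle (horizontal axis), of the 9 tested serotonin receptor genes; black circles are the fit without a block and blue diamonds the fit with the replicate block, bars are ± SE, and red ticks are the 4 same-numbered pairs of wells. All 4 ticks lie to the right of 0 for Htr1a and to the left for Htr1b and Htr2a, which follows from treatments that do not overlap. The error bar of Htr3a shrinks with the block.

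Reads of most of these genes were assigned to a single annotated transcript, and *Htr2c* and *Htr7* were the listed genes with at least 30 reads in every well and reads on more than 1 transcript. For *Htr2c*, Htr2c-201 encodes the full receptor in 459 codons, and Htr2c-207 leaves out the last 95 of the 201 bases of exon 5 of 6, after which its reading frame closes at 172 codons. The exon is printed because this choice separates the full receptor from a truncated form that does not bind serotonin. It spans chrX:147169570-147169770 (GRCm38, plus strand, coding in Htr2c-201), and capitals mark the bases that Htr2c-207 leaves out. That stretch includes the codons that ADAR enzymes edit in brain.
Htr2c exon 5: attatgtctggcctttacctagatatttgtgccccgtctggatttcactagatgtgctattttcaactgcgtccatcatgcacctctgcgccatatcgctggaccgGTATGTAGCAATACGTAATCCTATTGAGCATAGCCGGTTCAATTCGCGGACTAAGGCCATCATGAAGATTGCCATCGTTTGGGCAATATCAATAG

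The short form Htr2c-207 held 20.5, 13.7, 13.3 and 9.02% of the gene's TPM in vehicle replicates 1 to 4 and 17.0, 13.1, 11.6 and 11.4% in MCH replicates 1 to 4. The vehicle wells spanned the MCH wells on both ends. The full form Htr2c-201 took 85.5 ± 5.23% with vehicle and 86.3 ± 2.65% with MCH (SD, n = 4), a difference of 0.846 percentage points (exact permutation test over 70 assignments of treatments to wells, two-sided, *P* = 0.83, also after adjustment over 2 genes). For *Htr7* the leading transcript Htr7-202 took 61.0, 35.1, 43.6 and 49.8% with vehicle and 55.3, 54.3, 49.6 and 74.3% with MCH. The wells overlapped, and the difference of 10.97 points did not pass the exact permutation test (*P* = 0.257, adjusted *P* = 0.514). Its annotated nonsense-mediated decay form Htr7-204 took 11.9 to 38.8%, and Htr7-205 was at 0 reads in 2 wells and at 36.2% in vehicle replicate 2. The cause of this wide spread was not tested.

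**Figure D4:**
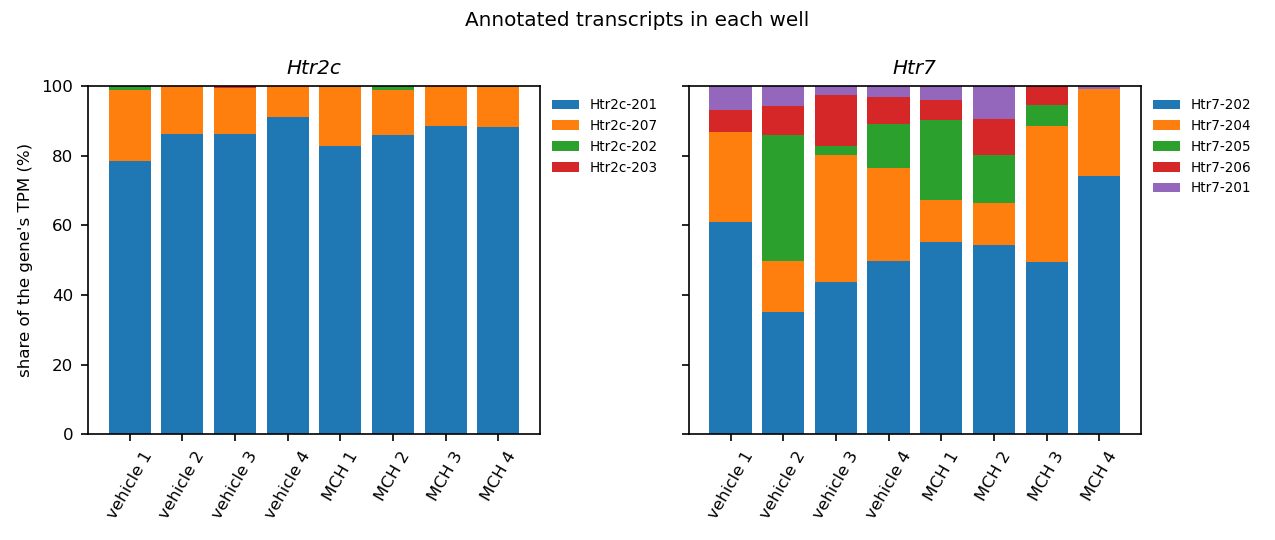
Share of the gene's TPM on each annotated transcript of Htr2c (left) and Htr7 (right) in each of the 8 wells, in percent. Htr2c-201 takes most of Htr2c in every well with Htr2c-207 at 9.02 to 20.5%, while the 5 transcripts of Htr7 vary between wells of the same treatment.

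The other genes of serotonin signalling were read from 6 lists, in which 0 genes were called without a block (edgeR) or by DESeq2 or limma voom. At an unadjusted *P* value under 0.05 there were 2 of the 59 genes tested in them, *Gnai3* and *Grk3*, or 3.39% beside the 8.5% of all genes. Of 16 genes for synthesis, packaging, uptake and breakdown, 10 were tested, with a median log2 fold change of −0.04. *Tph2*, the neuronal enzyme that begins serotonin synthesis, held 33 to 67 counts per well. *Maoa*, which breaks serotonin down, stood at 48.9 ± 2.64 CPM with vehicle and 45.9 ± 2.35 CPM with MCH (SD, n = 4). *Fev*, a transcription factor of serotonergic neurons, and *Asmt*, the last enzyme of melatonin synthesis, were the lowest, with a median of 0 TPM and no more than 4 and 2 counts in any well.

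Of 12 genes for the G protein alpha subunits through which these receptors act, 11 were tested, with a median log2 fold change of 0.00, and *Gna14* held only 0 to 4 counts per well. *Gnas*, which encodes Gs alpha, had the highest level of all list genes at a median of 1859 TPM. *Gnao1*, the main Go subunit of neurons, stood at 981 ± 22.9 CPM with vehicle and 990 ± 37.8 CPM with MCH (SD, n = 4). The potassium channel subunits opened by Gi/o receptors (GIRK, 3 of 4 tested) had a median of −0.02. The 19 binding partners and trafficking proteins, all tested, had a median of 0.01, and the 3 RNA editing enzymes −0.01.

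Of 15 regulators reported to act on *Htr1a* transcription, 13 were tested, with a median log2 fold change of 0.02. With the replicate block 1 of the 59 genes of the 6 lists was called, or 1.69% beside 3.98% of all genes, and with the side block the same gene, beside 4.46%. This was *Nr3c2*, the mineralocorticoid receptor, which rose by 0.23 ± 0.05 (SE) on the log2 scale (edgeR, adjusted *P* = 0.0336 with the replicate block and 0.0115 with the side block). Its levels were 104 ± 15.6 CPM with vehicle and 123 ± 26.4 CPM with MCH (SD, n = 4), and without a block its adjusted *P* was 0.782. In the 6 lists, 0 of the 59 genes had treatments that did not overlap in CPM, beside 6.03% of all genes.

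**Figure D5:**
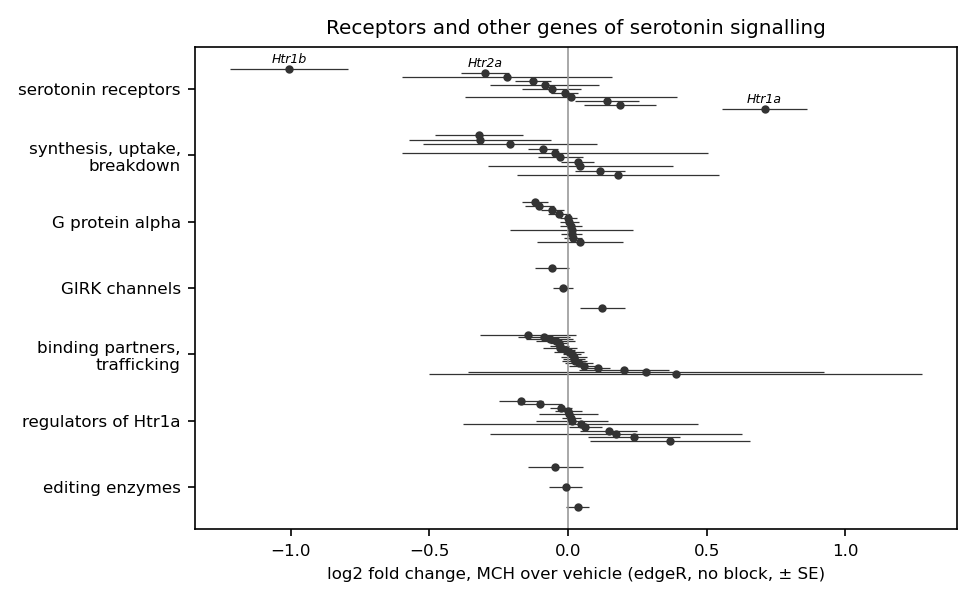
Log2 fold change, MCH over vehicle (horizontal axis, edgeR without a block, bars ± SE), of every tested serotonin receptor gene and of the tested genes of 6 further lists of serotonin signalling, 1 row of points per list. Htr1b and Htr1a stand farthest from 0, and most genes of the other lists lie within the error of 0.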

How the data were processed

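Poly-A RNA of 8 wells was sequenced as stranded libraries. The authors quantified the reads with salmon through the nf-core/rnaseq pipeline against GRCm38 and compared the treatments with DESeq2. The deposited gene table holds estimated counts, not scaled for depth or length, and 9.13% of its values have decimals. Each deposited transcript table gives estimated counts, effective lengths and TPM, which salmon had scaled by length and sequencing depth. GENCODE vM21 named 45143 of 45706 genes (98.8%). The annotation release of the authors is not given in the sources used here.

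Counts were rounded and fitted in R 4.3.3 with edgeR 4.0.16 (TMM, count minimum 10, total minimum 15, robust quasi-likelihood F test, no block), with Benjamini–Hochberg adjustment over 14962 genes and a threshold of 0.05. The script was tested on simulated data. CPM use the TMM factors. The standard error is the size of the log2 fold change over the square root of F. Shares of transcripts were compared by exact permutation. DESeq2 1.42.0, limma 3.58.1, other scaling, filters, offsets, blocks and left-out wells served as alternatives. The treatments share replicate numbers in the labels. Deviations from the treatment means correlated at 0.445 to 0.545 between same-numbered wells and 0.475 to 0.521 between other numbers of the same side. Across the sides they correlated at −0.548 to −0.438. Every same-numbered pair exceeded 0.1, the rule set for using the numbers as a block. Other numbers of the same side exceeded it as well, so the counts show the sides and not a pairing by number. The pairs of the replicate block rest on the numbers in the labels alone.

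Members, lists and tests were chosen with earlier results of these data known. The genes named are all family members, list genes called in the fits without a block or with the replicate block, the list genes of highest and lowest level, and the 3 genes most like *Htr1a*, *Htr1b*, *Htr2a* and *Htr3a*, those of the other 5 tested members not being printed. *Gnao1*, *Gna14*, *Maoa*, *Tph2*, *Slc18a2*, *Gnai3*, *Grk3* and the motifs were chosen after their values were seen. Floors cover counting error only.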

Additional observations from a re-analysis of the deposited data

Results flagged for a closer look

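*Htr2c* had a well far from the others in both treatments by Dixon's test for groups of 4. Vehicle replicate 2 held 136 CPM against 127 to 128 CPM in the other vehicle wells, and MCH replicate 1 held 141 CPM against 125 CPM in the other MCH wells. The gap took 0.841 and 0.982 of the range. Chance flags about 1 in 20 groups, and 24 groups of wells were examined. The 2 wells have different replicate numbers and lie on the same side.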

How the results depend on the processing

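Over all genes 35 were called without a block, and 157 with DESeq2, 596 with the replicate block, 668 with the side block, 7 with a length offset and 4 to 29 with each well left out, 4 without vehicle replicate 4. The replicate block called 1 listed receptor and the side block 2, against 0 without a block, and each called 1 gene of the other lists. The replicate block changed no other call among the listed receptors than that of *Htr1b*. With each well left out, the log2 fold change was −1.15 to −0.87 for *Htr1b*, −0.34 to −0.24 for *Htr2a* and 0.64 to 0.81 for *Htr1a*. Since the treatments of these genes did not overlap, leaving out 1 well could not reverse their direction. Over the other 7 alternatives the adjusted *P* values were 0.0479 to 0.585 for *Htr2a*, and 0.00523 to 0.322 for *Htr1b* over the 6 that give one, since DESeq2 gives none. With each well left out, log2 fold changes crossed 0 for *Htr1f* (−0.39 to 0.077, above 0 without vehicle replicate 4), *Htr2c* (−0.054 to 0.017), *Htr3a* (−0.20 to 0.052) and *Htr4* (−0.12 to 0.023), and the Htr2c-201 difference was −1.52 to 2.68 points, below 0 without vehicle replicate 1. The cause was not tested. Of 195 alternative values, 169 were rated the same, by a rule that depended on the result. For transcript shares and for log2 fold changes other than that of *Htr1a*, it asked for the same direction and side of the threshold. For counts of genes and the order of levels it asked for an equal or similar number. For *Htr1a*, which carries no test, it asked for a shift smaller than the spread of the wells. The order of the 10 levels was the same by count over effective length, by count per kilobase and with each well left out. At 8 to 19 counts for *Htr1f* and 0 to 4 for *Htr1d*, depth limits what can be seen.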

Other observations

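For *Htr1a*, *Htr1b*, *Htr2a* and *Htr3a* the genes most alike were those with the highest Pearson r of log2 CPM over the 8 wells, which share treatment and side. For *Htr1a* these were *Ccng2* (r = 0.986), *Gpank1* (0.980) and *Cbx2* (0.974). For *Htr1b* they were *Ccdc136* (r = 0.989), *Sptlc2* (0.986) and *Smap2* (0.977). For *Htr2a* they were *Clpx* (r = 0.970), *Arhgap24* (0.961) and *Fkbp4* (0.959), and for *Htr3a* *Tmub2* (0.983), *Vps18* (0.981) and *Traf3ip3* (0.980). These are the highest of 14962 genes over 8 points and carry no test. *Ccng2*, which encodes cyclin G2, had means of 32.7 CPM (vehicle) and 38.7 CPM (MCH), and *Arhgap24* 7.87 and 6.44 CPM.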
